A study of Mus musculus with 24 samples.

Results

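The ratio of mutant to wild-type RNA was compared between brain and skeletal muscle of the same 4 male Eya3-/- mice, to see which genes the loss of Eya3 touched differently in the 2 organs. The mutant line carries the gene trap vector pT1βgeo, a promoterless lacZ reporter, in an intron of Eya3. It was made from Sv129S2 embryonic stem cells and crossed repeatedly to C57BL/6, and it is a single insertion, so every mutant mouse shares it. The mice were 13 weeks old per the labels and are called W, X, Y and Z by ascending animal number. RNA of each organ of each Eya3-/- mouse was hybridised against a pool of RNA from the same organ of wild-type mice, on 2 glass cDNA arrays with the dyes Cy5 and Cy3 exchanged. The 16 arrays of brain and muscle were used, of 24 in the series. The pool is a single control sample per organ, so a deviation of a pool and an effect of the mutation cannot be told apart. The labels speak of 6 control animals in a pool, the methods of 5, and a span of animal numbers listed for the pool includes the numbers of mice X and W. The deposited log2 ratios run the same way on both dye orientations, most likely mutant over pool, although no source states the direction. Of 20794 cDNA clones, 12762 (61.4%) had values on both arrays in at least 3 mice in brain and in muscle, and these are described here. They comprise 7939 clones with a gene symbol, from 6280 genes, and 4823 without. The 2 arrays of a mouse and organ were averaged, and the muscle value was subtracted from the brain value of the same mouse. A difference below 0 therefore means a lower mutant-to-pool ratio in brain than in muscle. It is not a difference in level between the organs, which arrays of this design do not give, and for the same reason the organs could not be checked against their marker genes.

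Eya proteins are transcriptional coactivators without a DNA-binding domain of their own, and they also carry a tyrosine phosphatase activity. They are brought to genes by homeodomain proteins of the Sine oculis family, which bind a motif known as MEF3, and together with Pax and Dach proteins they form a network first described in the eye of Drosophila and later in muscle, ear and kidney of mammals.

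No clone passed the test of the difference between the organs. Limma, a linear model with a moderated variance fitted over all clones, called 0 of 12762 clones (0%) at an adjusted p under 0.10 after Benjamini-Hochberg adjustment, and the lowest adjusted p was 0.752. At an unadjusted p under 0.05 limma gave 370 clones higher in brain (2.9%) and 322 lower (2.52%). SAM, the method of the study, called 1 of 7165 clones with 4 differences, a clone without a symbol described below. With 4 mice, the two-sided exact permutation test that flips signs cannot give a p below 0.125, and every clone with all 4 differences on the same side of 0 has that value. The differences varied by a median SD of 0.62 between mice, against median SDs of 0.35 for the brain ratios and 0.45 for the muscle ratios. Values were missing for 7.61% to 24.5% of the clones, depending on the array, and array medians lay between -0.25 and 0.14. Across clones, which are not independent replicates, the dye-swapped arrays of a mouse correlated with a median Pearson r of -0.02 in brain and -0.05 in muscle. The single Eya3 clone had a value on 4 of 8 brain arrays and 3 of 8 muscle arrays and on both arrays of 0 mice, so the genotype could not be checked.

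The promoters of 4 genes are shown here because their clones stand for the 2 profiles over mice and organs that recurred on many clones: Tmem109 and Pdlim4 for a profile high in brain, Hba-a1 and Nup155 for a profile low in brain. Each is the stretch of 150 bases before the RefSeq start of the gene on GRCm38.p6, read along the gene from 5′ to 3′, with a CCAAT box, the motif of the factor NF-Y, in capitals.
Tmem109: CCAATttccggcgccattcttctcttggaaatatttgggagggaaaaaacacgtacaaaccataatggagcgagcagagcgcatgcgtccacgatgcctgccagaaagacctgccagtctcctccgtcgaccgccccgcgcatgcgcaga
Pdlim4: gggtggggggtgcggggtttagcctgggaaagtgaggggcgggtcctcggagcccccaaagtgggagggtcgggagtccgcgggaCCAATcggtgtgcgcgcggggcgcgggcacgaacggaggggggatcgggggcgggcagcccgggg
Hba-a1: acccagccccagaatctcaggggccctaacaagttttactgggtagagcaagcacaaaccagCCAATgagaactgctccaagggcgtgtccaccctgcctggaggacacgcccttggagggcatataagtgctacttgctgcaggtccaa
Nup155: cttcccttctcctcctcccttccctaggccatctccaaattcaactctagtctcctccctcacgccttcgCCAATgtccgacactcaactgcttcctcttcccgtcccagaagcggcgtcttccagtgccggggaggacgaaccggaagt
They lie at chr19:10881744-10881893 (minus strand) for Tmem109, chr11:54069018-54069167 (minus strand) for Pdlim4, chr11:32283522-32283671 (plus strand) for Hba-a1 and chr15:8109163-8109312 (plus strand) for Nup155. Over the 250 bases before the start, on both strands, each of the 4 held 1 match to CCAAT, as 34.5% of all 27019 RefSeq promoters held at least 1. The core of MEF3, TCAGGTT, was in 3.52% of all promoters and in 0 of these 4, and the GATA motif AGATAA was in 10.2% of all promoters and in 0 of these 4. Such a match is a description of letters, and a missing match says only that the letters are not in this window.

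Genes of the cytosolic ribosome had lower ratios in brain than in muscle. Of 54 measured genes of ribosomal proteins, the protein part of the machine that translates mRNA, 48 had a mean difference below 0, where 54.3% of all 6280 genes did. The median difference of the list was -0.28 on the log2 scale, beside -0.05 for all genes. Of the 48 ribosomal genes with 4 differences, 27 were below 0 in every mouse and 0 were above 0 in every mouse, where 14.1% and 6.11% of all 4093 such genes were. The list median of the differences was -0.30, -0.31, -0.22 and -0.32 in mice W to Z. In brain the list had medians of -0.22, -0.26, -0.15 and -0.46 in mice W to Z, against 0.07, 0.08, 0.07 and -0.18 in muscle. Every mouse was lower in brain than in its own muscle, while mouse Z was lowest in both organs, so that the organs overlapped between mice. No clone of the list was called by limma.

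Both subunits of the ribosome were lower. The small subunit, which reads the mRNA, had 21 of 22 genes below 0 with a median of -0.29, and the large subunit, which joins the amino acids, had 27 of 32 below 0 with a median of -0.27. Rps21, of the small subunit, had -0.12, -0.52, -0.31 and -0.61 in brain of mice W to Z, against 1.02, -0.05, 0.26 and 0.01 in muscle. Its difference was -0.70 ± 0.30 (SD, n = 4 mice), and its brain values lay below its muscle values with no overlap. Rps24, also of the small subunit, had -0.62, -0.77, -0.45 and -0.37 in brain, against 0.08, 0.24, 0.18 and 0.00 in muscle, a difference of -0.68 ± 0.26 (SD, n = 4 mice) without overlap. For Rpl19, of the large subunit, brain had -0.41, -0.42, -0.16 and -0.79, against 0.14, 0.02, 0.23 and -0.14 in muscle, and the difference was -0.51 ± 0.12 (SD, n = 4 mice). The values of these 3 genes were low in every brain and near or above 0 in most muscles. Rpl30 was the exception among the examples, with a difference of 0.70 ± 0.66 (SD, n = 4 mice), above 0 in 3 mice. Its clones 8891 and 14757 had values on both arrays in both organs in 3 mice each and gave 1.04 and 0.45. Rpl6 was near 0, at 0.08 ± 0.18 (SD, n = 4 mice).

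**Figure D1:**
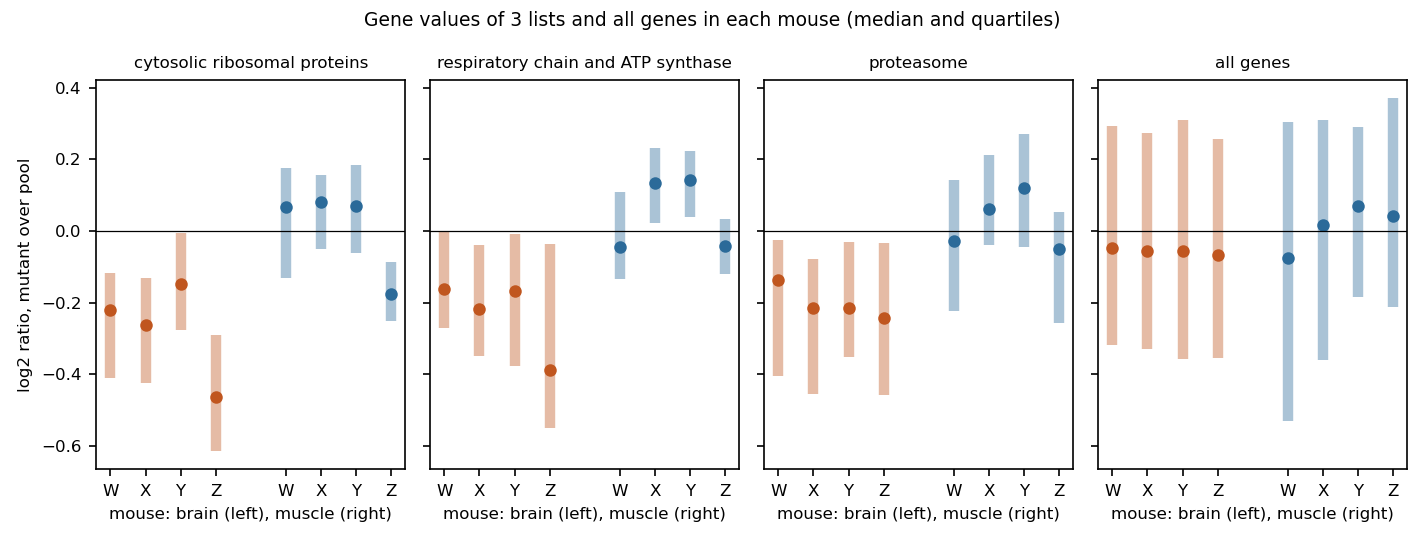
Log2 ratio of mutant over pool (vertical axis) of the genes of 3 lists and of all genes in mice W to Z, brain left and muscle right in each panel; points are medians and bars run between the first and the last quartile over genes. Ribosomal proteins had brain medians from -0.46 to -0.15 and muscle medians from -0.18 to 0.08, and the medians of all genes stayed between -0.08 and 0.07.

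The mitochondrial respiratory chain and its ATP synthase, which make ATP from the oxidation of fuels, were also lower in brain. Of 63 measured genes 54 had a mean difference below 0, and the median was -0.31. All 4 differences were below 0 for 33 of 56 genes with 4 differences and above 0 for 1, where 14.1% and 6.11% of all genes were. The list medians were -0.16, -0.22, -0.17 and -0.39 in brain of mice W to Z, against -0.05, 0.13, 0.14 and -0.04 in muscle. All brain medians were thus lower than all muscle medians, with mouse Z again lowest in brain. The median difference was -0.15 in mouse W and between -0.32 and -0.31 in the other mice.

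By complex, the median difference was -0.36 for complex I, the NADH dehydrogenase (22 of 25 genes below 0), and -0.33 for complex IV, the cytochrome c oxidase (11 of 13). It was -0.25 for the ATP synthase (12 of 14), -0.20 for complex III, which passes electrons to cytochrome c (7 of 8), and -0.04 for complex II, the succinate dehydrogenase (2 of 3). Complex II, with 3 genes, had medians of -0.02, -0.16, -0.39 and -0.27 in mice W to Z. Its median was -0.20 in Cy5 alone and -0.18 in Cy3 alone, farther below 0 than the -0.04 from both arrays averaged. Complex III had -0.20 in Cy5 alone and -0.10 in Cy3 alone. In complex I, 17 of 22 genes were below 0 in all 4 mice, and in complex III 1 of 7 was, where 14.1% of all genes were. Whether the complexes differ from each other was not tested. Ndufb9, a subunit of complex I, had -0.28, -0.39, -0.60 and -0.55 in brain, against 0.11, 0.34, 0.25 and -0.07 in muscle. The organs did not overlap, and the difference was -0.61 ± 0.21 (SD, n = 4 mice). Ndufa2, of the same complex, had -0.12, -0.58, -1.93 and -0.58 in brain, against 0.35, -0.35, 0.28 and 0.10 in muscle, and its difference of -0.90 ± 0.90 (SD, n = 4 mice) rested largely on mouse Y. Sdhc, a membrane anchor of complex II, had -0.45, -0.37, -0.37 and -0.42 in brain, against -0.12, 0.08, 0.38 and -0.06 in muscle. Its brain values were close together and all below the muscle values, and the difference was -0.47 ± 0.19 (SD, n = 4 mice). Cox7a2, of complex IV, had a difference of -0.51 ± 0.40 (SD, n = 4 mice), and Atp5c1, of the catalytic part of the ATP synthase, one of -0.45 ± 0.27 (SD, n = 4 mice). Sdhb (-0.04 ± 0.29), Cox6a2 (0.01 ± 0.39) and Atp5a1 (0.06 ± 0.26) differed from 0 by less than their spread (SD, n = 4 mice each).

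The 1 gene above 0 in all 4 mice was Atp5h, a subunit of the stalk of the ATP synthase, and its clones disagreed. Clone 19212 gave 1.20 and clone 18926 gave -0.20. On 6 of 8 muscle arrays the value of clone 19212 was the value shared by many clones that is described further below.

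The proteasome, the protease that degrades ubiquitin-tagged proteins, was lower in brain as well. Of 34 measured genes 28 were below 0, with a median difference of -0.23. In brain the list medians were -0.14, -0.21, -0.21 and -0.24, against -0.03, 0.06, 0.12 and -0.05 in muscle, without overlap. Of the 14 genes of the core particle, which holds the protease sites, 11 were below 0 (median -0.30), and of the 14 genes of the regulatory particle, which unfolds the substrates, all 14 were (median -0.20). All 4 differences were below 0 for 7 of 12 genes of the core and 1 of 11 of the regulatory particle, where 14.1% of all genes were. In mouse W the median difference of the regulatory particle was 0.01. Psmb6, a catalytic subunit, had -0.44, -0.38, -0.56 and -0.64 in brain, against 0.03, 0.66, 0.29 and -0.40 in muscle, a difference of -0.65 ± 0.36 (SD, n = 4 mice). Psma1, a structural subunit of the core, had -0.50, -0.49, -0.31 and -0.56 in brain, against 0.02, 0.27, 0.19 and -0.27 in muscle, and its organs did not overlap. The difference of Psma1 was -0.52 ± 0.19 (SD, n = 4 mice). Psmb10, the subunit that replaces a catalytic subunit in the immunoproteasome, had 0.31 ± 0.38 (SD, n = 4 mice), above 0 in 3 mice. Psmd6, of the regulatory particle, had -0.81 ± 0.76 (SD, n = 4 mice), with brain values of -1.04 and -1.27 in mice W and X and of -0.18 and 0.15 in mice Y and Z, against muscle values between 0.07 and 0.41.

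These 3 lists kept the direction of their median over genes when each dye orientation was taken alone, that is, on separate arrays. With the mutant in Cy5 the median difference was -0.29 for ribosomal proteins, -0.31 for the respiratory chain and -0.20 for the proteasome, where all genes had 0.04. With the mutant in Cy3 the values were -0.20, -0.22 and -0.23, where all genes had -0.11. In mouse X alone the Cy3 medians were -0.12, -0.06 and -0.12, where all genes had -0.15. In that mouse and dye, no list was thus below all genes. The median of all genes moved with the dye, so that relative to it the lists were farther below with the mutant in Cy5. All 4 differences were below 0 for 21 of 54 ribosomal genes in Cy5 (10.4% of all genes) and for 16 of 49 in Cy3 (12.1% of all genes). All 4 were above 0 for 2 of 54 in Cy5 (8.72% of all genes) and 0 of 49 in Cy3 (5.57% of all genes). For the respiratory chain all 4 were below 0 for 22 of 59 genes in Cy5 and 19 of 59 in Cy3. For the proteasome it was 6 of 30 in Cy5 and 6 of 31 in Cy3. The 3 lists held 0 of the clones with the haemoglobin profile described below. Since all mice were measured against the same 2 pools, the likeness between mice does not separate the mice's RNA from that of the pools.

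**Figure D2:**
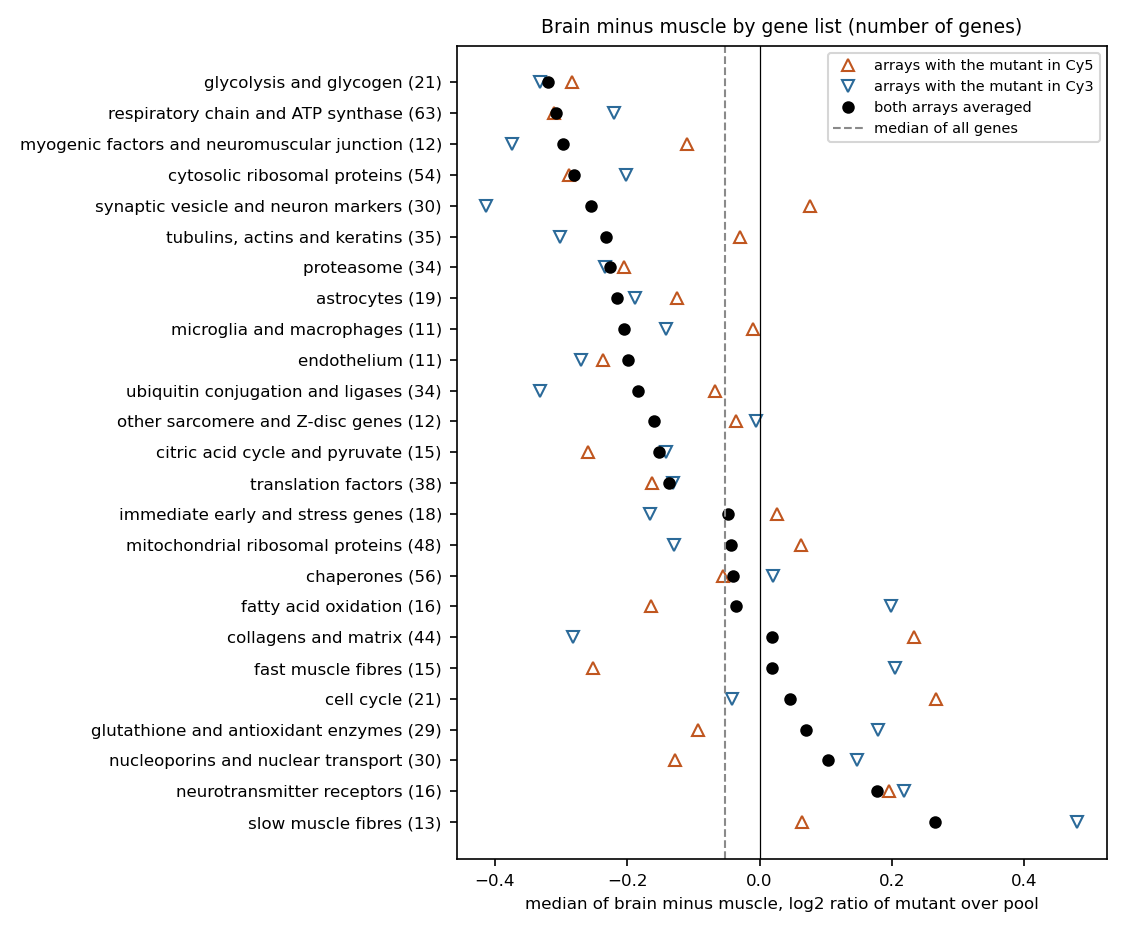
Median over genes of the brain-minus-muscle difference of the log2 ratio (horizontal axis) for the gene lists with at least 10 measured genes, the number of genes in brackets; dots are the averages of both arrays, upward triangles the arrays with the mutant in Cy5, downward triangles those with the mutant in Cy3, and the dashed line is the median of all genes. The markers of ribosomal proteins, the respiratory chain and the proteasome lay between -0.31 and -0.20, while neuron markers ran from -0.41 in Cy3 to 0.08 in Cy5.

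Other genes of protein synthesis and turnover were mixed. Translation factors had 28 of 38 genes below 0 (median -0.14), ubiquitin conjugating enzymes and ligases 27 of 34 (median -0.18), and chaperones 29 of 56 (median -0.04). The ubiquitin list had -0.07 with the mutant in Cy5 alone and -0.33 in Cy3 alone, and the chaperones had -0.05 and 0.02. Mitochondrial ribosomal proteins, which translate only the mitochondrial genome, had 29 of 48 below 0 with a median of -0.04, close to that of all genes, and 0.06 in Cy5 alone and -0.13 in Cy3 alone. Eif4a2, an RNA helicase of translation initiation, had -0.77, -0.59, -0.34 and -0.45 in brain, against 0.28, 0.11, 0.06 and 0.06 in muscle. Its organs did not overlap, and the difference was -0.67 ± 0.28 (SD, n = 4 mice). Eef1g, a subunit of elongation factor 1, went the other way with 1.01 ± 0.61 (SD, n = 4 mice), above 0 in all mice, and belongs to the Tmem109 profile described below. The values of Fbxo46 (-2.59) and of Hk2 in the glycolysis list (2.36) rested on single values beyond 10 on 1 array each, with 8.65 for Fbxo46 in muscle of mouse W and 8.83 for Hk2 in brain of mouse X.

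Markers of neurons and astrocytes had medians below 0, while those of oligodendrocytes and the receptors for neurotransmitters did not. Several of these medians depended on the dye, and that of oligodendrocytes was below 0 in mice X, Y and Z. In bulk RNA, fewer cells of a type and less RNA per cell cannot be told apart. Synaptic vesicle and neuron markers had 23 of 30 genes below 0 and a median of -0.25, with 0.08 on the arrays with the mutant in Cy5 and -0.41 with the mutant in Cy3. Of 19 such genes with 4 differences, 3 were below 0 in every mouse and 1 above, where 14.1% and 6.11% of all genes were. The median difference was -0.09, -0.30, -0.11 and -0.12 in mice W to Z, where all genes had 0.04, -0.06, -0.12 and -0.14. Brain medians lay between -0.30 and -0.09, against -0.04 to 0.02 in muscle, where most of these genes have little function. Cplx1, a regulator of vesicle fusion, had -0.32, -0.28, -0.64 and -0.37 in brain, against 0.63, 0.43, 0.05 and 0.22 in muscle, with no overlap and a difference of -0.74 ± 0.15 (SD, n = 4 mice). Basp1, a membrane protein of growing axons, had a difference of -0.95 ± 1.40 (SD, n = 4 mice) because of a muscle value of 2.47 in mouse X. Stmn2, a regulator of microtubules in neurons, had 0.77 ± 1.0 (SD, n = 4 mice), with muscle values of -2.18 in mouse W and -1.0 in mouse X. Astrocyte markers had 13 of 19 genes below 0 (median -0.22, and -0.12 in Cy5 alone), with the calcium-binding protein S100b at -0.74 ± 0.53 (SD, n = 4 mice). Oligodendrocyte and myelin genes had 2 of 6 below 0 and a median of 0.02, with -0.03 in Cy5 alone and 0.11 in Cy3 alone. By mouse the median of this list was 0.12, -0.40, -0.28 and -0.295 in mice W to Z. Trf, the iron carrier transferrin, had 0.39 ± 1.53 (SD, n = 4 mice), and Cryab, a small heat shock protein, -0.36 ± 0.35 (SD, n = 4 mice). The gene of this list farthest below 0, Qdpr, which regenerates the cofactor tetrahydrobiopterin, had -0.34, -0.27, -0.08 and -0.49 in brain, against 0.02, 0.25, 0.33 and 0.04 in muscle. The difference of Qdpr was -0.45 ± 0.08 (SD, n = 4 mice) with no overlap between the organs. Receptors for neurotransmitters had 7 of 16 genes below 0 and a median of 0.18, which was -0.05 without mouse X, with Grin2c, an NMDA receptor subunit, at -0.92 ± 0.58 and Htr3a, a serotonin-gated channel, at 1.25 ± 1.14 (SD, n = 4 mice each).

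Genes of slow muscle fibres had higher ratios in brain than in muscle at the median, while those of fast fibres were near 0. The arrays give no levels, so how much RNA of these genes brain held could not be seen. Of 13 slow fibre genes 4 were below 0, with a median difference of 0.26, and by mouse it was 0.71, 0.02, -0.04 and 0.14 in mice W to Z. Mouse W stood out, with a muscle median of -0.52, and without it the list median was 0.02. The list median was 0.06 with the mutant in Cy5 alone and 0.48 in Cy3 alone. Tnnc1, the calcium-binding troponin of slow and cardiac muscle, had 0.80, 0.96, 0.60 and 0.19 in brain, against -1.35, 0.44, -0.94 and -0.02 in muscle, a difference of 1.11 ± 0.90 (SD, n = 4 mice) above 0 in all mice. Myl2, a myosin light chain of the same fibres, had 0.96, 0.17, 1.28 and -0.70 in brain, against -2.20, -0.20, -0.30 and -0.41 in muscle, a difference of 1.21 ± 1.52 (SD, n = 4 mice). For Tnnc1 and Myl2 the low muscle value of mouse W weighed most, and the organs overlapped. Fast fibre genes had 7 of 15 below 0 and a median of 0.02, with -0.25 on the arrays with the mutant in Cy5 and 0.20 with the mutant in Cy3. The fast fibre median was -0.11 when values shared by many clones, described further below, were set to missing. Ryr1, the calcium release channel, had 0.48 ± 0.34 (SD, n = 4 mice) and was above 0 in all mice, and Aldoa, a glycolytic enzyme, had -0.37 ± 0.32 (SD, n = 4 mice) and was below 0 in all. Among myogenic factors, Mef2c, a transcription factor of muscle and neurons, had -0.21, -0.20, -0.21 and -0.68 in brain, against 0.13, 0.20, 0.28 and 0.19 in muscle. Its difference was -0.53 ± 0.24 (SD, n = 4 mice), and the organs did not overlap.

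At the level of single clones, 500 of 7165 clones with 4 differences were above 0 in every mouse (6.98%) and 990 below (13.8%). All brain values lay above all muscle values for 163 clones (2.27%) and below them for 336 (4.69%). In all mice, 33 clones had brain above 0 and muscle below 0 (0.461%), and 87 had the opposite (1.21%). The clones with the lowest p in either direction are described next, each with an adjusted p of 0.752 from limma.

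Among these clones, the one farthest above 0 was that of Timp3, an inhibitor of matrix proteases, on clone 485, at 1.57 ± 0.78 (SD, n = 4 mice). It had 0.35, -0.12, 0.59 and 0.87 in brain, against -0.38, -2.72, -0.98 and -0.49 in muscle, without overlap. The other Timp3 clones, 479 and 535, gave 0.25 and 0.06. Tcea3, a factor of transcript elongation, had 0.86, 0.50, 1.27 and 0.99 in brain, against -0.68, -0.33, -0.23 and -0.49 in muscle. Every Tcea3 value of clone 7776 was above 0 in brain and below 0 in muscle, and the difference was 1.33 ± 0.34 (SD, n = 4 mice). With the mutant in Cy5 alone clone 7776 gave 0.54, and in Cy3 alone 2.13. Clone 15174 of the same gene gave -0.39 ± 0.82 (SD, n = 4 mice). Aamp, a cytoplasmic WD-repeat protein, had 0.18, 1.04, 0.99 and 0.51 in brain, against -0.80, 0.08, -0.20 and -0.36 in muscle on clone 8092, a difference of 1.0 ± 0.14 (SD, n = 4 mice), while clone 16966 gave -0.26 ± 0.22 (SD, n = 4 mice). Ly6g6c, a small surface protein of the Ly6 family, had -0.24, 0.49, 0.25 and 0.23 in brain, against -1.25, -0.88, -0.65 and -0.90 in muscle. Its difference of 1.10 ± 0.20 (SD, n = 4 mice) came mostly from muscle.

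Among the clones lower in brain, Uso1, a tethering factor of vesicles bound for the Golgi, had -0.50, -0.30, -0.71 and -0.62 in brain, against 1.20, 1.01, 1.08 and 0.58 in muscle. Brain was below 0 and muscle above 0 in every mouse, and the difference was -1.5 ± 0.29 (SD, n = 4 mice). Serpina12, also known as vaspin, had -1.01, -0.69, -1.17 and -0.91 in brain, against 0.12, 0.18, 0.33 and 0.58 in muscle, a difference of -1.25 ± 0.30 (SD, n = 4 mice) with the same split of signs. Adcyap1r1, the receptor of the neuropeptide PACAP, had -0.43, -0.35, -0.60 and -0.74 in brain, against 0.79, 0.37, 0.67 and 0.20 in muscle. Its brain and muscle values were again on opposite sides of 0, with a difference of -1.04 ± 0.26 (SD, n = 4 mice). Ints5, a subunit of the Integrator complex, had -1.07, -0.01, -1.71 and -0.18 in brain, against 0.64, 1.44, 1.68 and 1.89 in muscle, a difference of -2.16 ± 0.86 (SD, n = 4 mice). Asph, a hydroxylase of the endoplasmic reticulum, had -0.53, -0.63, -0.70 and -1.05 in brain, against 0.37, 0.60, 2.13 and 0.95 in muscle on clone 20110, while clone 1760 gave -0.31 from 3 mice. These 5 lead clones had all brain values below 0 and all muscle values above 0, which did not hold for Asph clone 1760.

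Itpk1 and Car2 were lower in brain mainly through high muscle values. Itpk1, an inositol phosphate kinase, had 0.14, 0.04, 0.15 and 0.53 in brain, against 1.38, 1.08, 1.79 and 2.05 in muscle on clone 1802, and its clones 724 and 15938 gave -0.24 and -0.21. Car2, a carbonic anhydrase of red cells and glia among others, had 0.41, -0.95, -0.21 and -0.53 in brain, against 2.44, 0.54, 0.92 and 0.63 in muscle on clone 4021. Its 3 clones had the same direction, with -1.45 ± 0.42 for clone 4021, -0.59 ± 0.12 for clone 10483 and -0.53 ± 0.78 for clone 19323 (SD, n = 4 mice each). Mad2l1, a spindle checkpoint protein, had -1.26 ± 0.50 (SD, n = 4 mice), but 0.05 on the arrays with the mutant in Cy5 alone. Of the 2 clones without a symbol, clone 9788 had -1.20, -2.04, -2.10 and -1.03 in brain, against -0.05, -0.02, -0.30 and 1.96 in muscle, and clone 1068 had a difference of -1.46 ± 0.66 (SD, n = 4 mice).

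**Figure D3:**
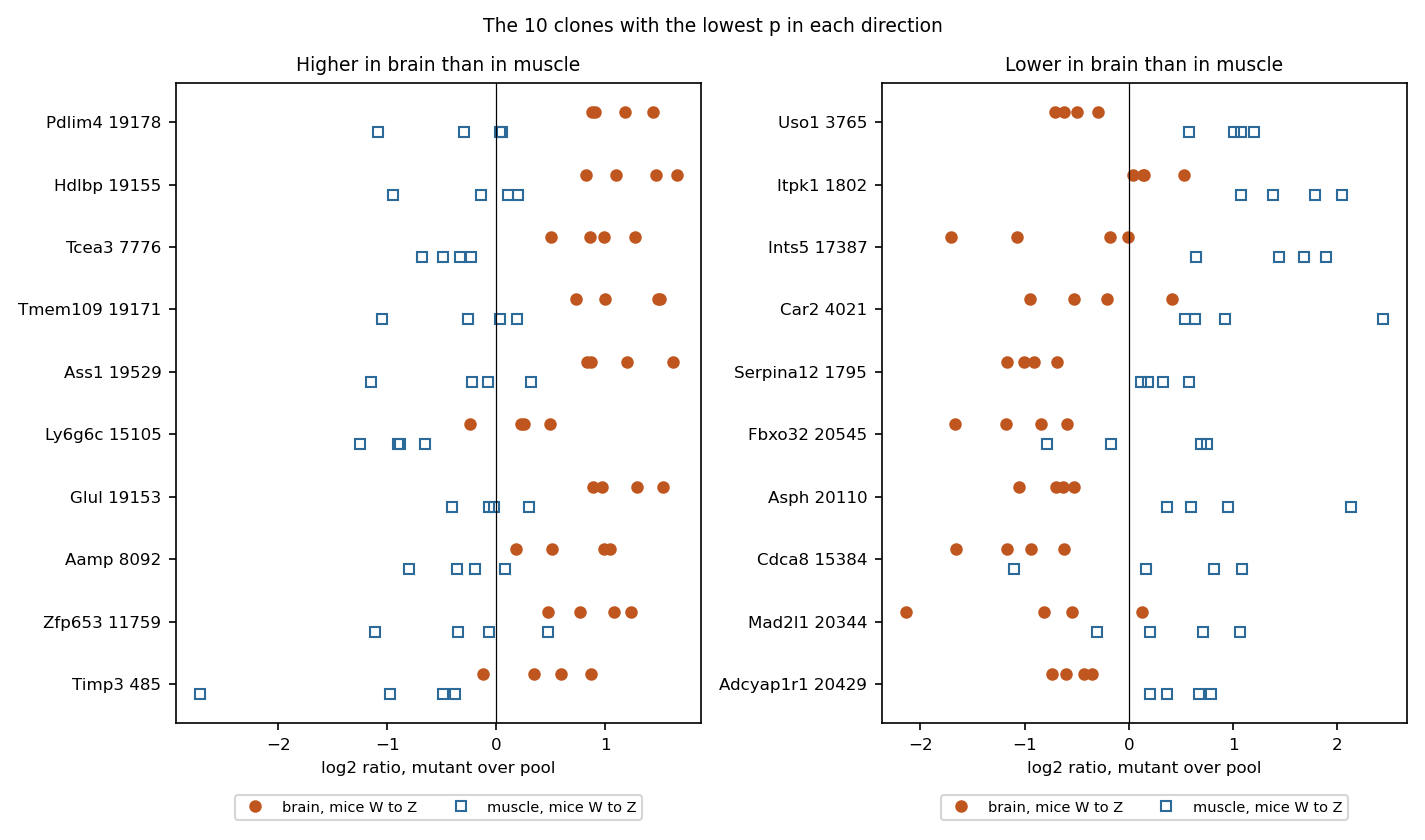
Log2 ratio of mutant over pool (horizontal axis) of the 10 clones with a symbol and the lowest p in each direction, labelled by gene and clone number; filled circles are brain and open squares muscle of mice W to Z, without error bars since every mouse is drawn. Serpina12 brain values run from -1.17 to -0.69 and its muscle values from 0.12 to 0.58.

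Several of these clones shared a profile over mice and organs, chosen for description after their values were seen. Likeness was measured as the root mean square distance over the 8 values of 4 mice in 2 organs. Within 0.3 of the Tmem109 clone 19171 lay 9 clones with itself, the farthest at 0.28 and the next beyond the limit at 0.30, where the median distance of clones was 1.10. They were Tmem109, a membrane protein of the endoplasmic reticulum and nucleus, Hdlbp, an RNA-binding protein also called vigilin, Pdlim4, a partner of the actin cytoskeleton, Commd3, Ass1, an enzyme of arginine synthesis, Eef1g, Zfp653 and clones 13444 and 19176 without a symbol. Tmem109 had 1.0, 1.48, 0.73 and 1.5 in brain, against -1.05, 0.19, -0.26 and 0.03 in muscle, a difference of 1.45 ± 0.45 (SD, n = 4 mice). Pdlim4 had 0.91, 1.18, 0.88 and 1.44 in brain, against -1.09, 0.03, -0.30 and 0.05 in muscle, a difference of 1.43 ± 0.40 (SD, n = 4 mice). Hdlbp had 1.10, 1.47, 0.82 and 1.66 in brain, against -0.95, 0.11, -0.14 and 0.20 in muscle, a difference of 1.46 ± 0.45 (SD, n = 4 mice). In each of these, mice X and Z were highest in brain and mouse W was lowest in muscle. Of the 9 clones 7 had numbers between 19155 and 19529, limits set by these clones themselves. The clones in that span were not counted. The wider span from 19121 to 20545 held 623 of the 7165 clones with 4 differences. Other clones of these genes mostly had other values. Zfp653 clone 16206 gave 1.10 ± 1.97 (SD, n = 3 mice) and clone 18198 gave -0.66 from 2 mice, where the lead clone 11759 had 1.15 ± 0.41 (SD, n = 4 mice). Hdlbp clone 7503 had 0.18 ± 0.19, and Ass1 clones 7392 and 18983 had -0.35 and -0.39, where the lead clone of Ass1 had 1.41 ± 0.42 (SD, n = 4 mice for those with an error).

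A second profile was that of haemoglobin. The 6 clones of Hba-a1, the alpha chain of adult haemoglobin and a marker of red cells, had medians of -0.58, -1.05, -0.81 and -1.59 in brain of mice W to Z, against 1.25, -0.18, 0.88 and -1.57 in muscle. Brain was below 0 in all mice, muscle ran over nearly 3 units, and in mouse Z the organs were alike. The difference was -1.83, -0.86, -1.70 and -0.02, with a mean of -1.10 ± 0.84 (SD, n = 4 mice). Within 0.5 of this median lay 33 clones, the farthest at 0.47 and the next beyond the limit at 0.55, where the median distance was 1.20. Besides Hba-a1 they carried 16 other symbols and 11 carried none. Nup155, a structural nucleoporin, lay at 0.19, with -0.26, -1.07, -0.65 and -1.27 in brain, against 1.43, -0.23, 0.81 and -1.52 in muscle, and its difference of -0.93 ± 0.87 (SD, n = 4 mice) was below 0 in 3 mice. Fbxo32, the muscle ubiquitin ligase subunit atrogin-1, lay at 0.34 with a difference of -1.19 ± 0.30, and Cdca8, a chromosomal passenger protein, at 0.23 with -1.34 ± 0.55 (SD, n = 4 mice each). Their muscle values in mouse Z were -0.79 and -1.10, against values between -0.17 and 1.09 in the other mice. Of the 33 clones 19 had numbers between 15351 and 15662, among 171 clones with 4 differences in that span, 9 had numbers between 19121 and 20545, among 623, and 5 lay elsewhere. What these neighbours by number share was not tested. Without the 33 clones, 972 of 7132 clones were below 0 in every mouse and 500 above. Of the 11 clones in the list of red cell genes, the 6 of Hba-a1 had the profile. Of the 6 genes in that list, 5 had a mean difference below 0, where 54.3% of all genes did. With 1 dye orientation alone it was 3 of 7 in Cy5 and 6 of 7 in Cy3. Bpgm had -0.23 ± 0.20 and was below 0 in all 4 mice. Alas2, of haem synthesis, had -0.61 ± 1.17 and Klf1, a red cell transcription factor, -0.18 ± 1.36, each below 0 in 3 mice (SD, n = 4 mice for each gene).

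**Figure D4:**
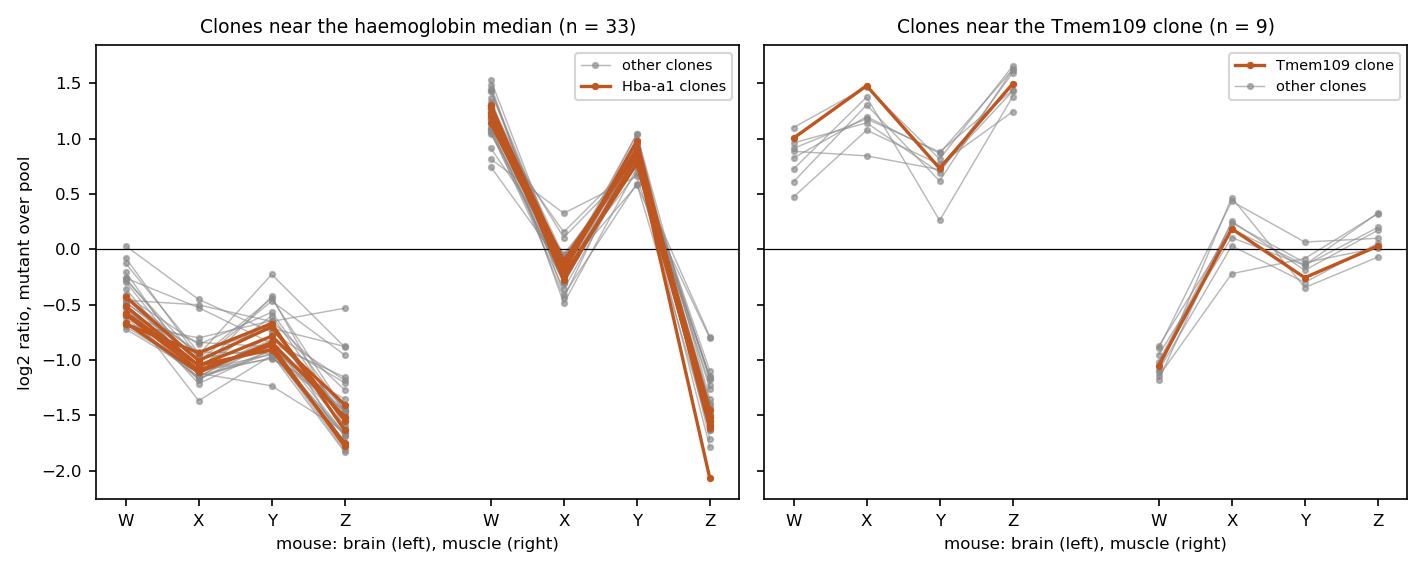
Log2 ratio of mutant over pool (vertical axis) of the 33 clones within a root mean square distance of 0.5 of the haemoglobin median (left) and the 9 clones within 0.3 of the Tmem109 clone (right), in brain and then muscle of mice W to Z; each line is a clone, and the Hba-a1 and Tmem109 clones are drawn in colour. The haemoglobin median was 1.25 in muscle of mouse W and -1.57 in muscle of mouse Z.

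Glul, the glutamine synthetase of astrocytes and muscle, had 0.89, 1.29, 0.97 and 1.53 in brain, against 0.30, -0.07, -0.41 and -0.02 in muscle on clone 19153, a difference of 1.22 ± 0.43 (SD, n = 4 mice). Clone 2548 of the same gene gave -0.36 ± 0.41 (SD, n = 4 mice). The muscle values of clone 19153 were values that many clones had in common. On each of the 16 arrays a value was shared by 141 to 353 clones within 0.01, and on 15 of them it was the most frequent value. On the muscle array of mouse Y with the mutant in Cy5, 0.195 was more frequent than the shared -0.805. All 1959 values beyond 10 in size lay 16.61 log2 units, a factor of 1e+05, from the shared value of their array. On 7 of 8 muscle arrays and 0 of 8 brain arrays the Glul clone had this value. Of 12762 clones 18 had it on at least 6 of 8 muscle arrays and 1, that of Lrfn4, on at least 6 of 8 brain arrays, while 11716 clones never had it in muscle and 11414 never in brain. The 18 included 3 genes abundant in muscle or brain, Tnnc2 and Tnnt3 of fast fibres (7 of 8 arrays each) and Atp5h (6 of 8), besides Apaf1, Hoxb1 and Vldlr (8 of 8 each). Clones 13098 and 16261 without a symbol had it on all 8 muscle arrays, so that both gave -0.07, -0.41 and -0.02 in muscle of mice X, Y and Z, the same as Glul and Atp5h. Such muscle values vary with the array and not with the gene, and the differences between these clones therefore rest on brain. The files hold no signals, and the origin of the shared value was not tested.

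The clone that SAM called, clone 19221, was among them in part. It had 1.01, 1.39, 0.99 and 1.58 in brain, against -0.23, -0.07, -0.49 and -0.06 in muscle, a difference of 1.46 ± 0.16 (SD, n = 4 mice), with the shared value on 4 of 8 muscle arrays. Its mean difference was 2.28 with the mutant in Cy5 alone and 0.63 in Cy3 alone, so the small SD between mice hides a dependence on the dye. Its adjusted p from limma was 0.752. The lead clones of Pdlim4, Hdlbp, Tmem109, Uso1 and Serpina12 had the shared value on fewer than 2 arrays of either organ.

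**Figure D5:**
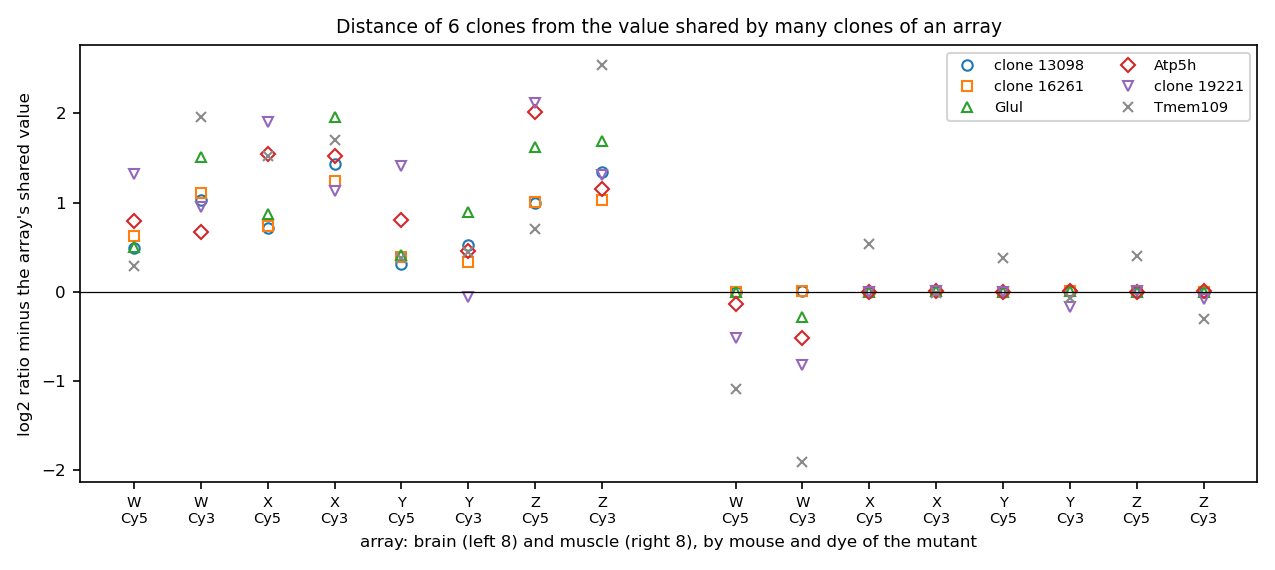
Log2 ratio minus the value shared by many clones of the same array (vertical axis) for 6 clones on the 8 brain arrays (left) and 8 muscle arrays (right), labelled by mouse and dye of the mutant; every point is 1 array. Glul is at 0 on 7 of 8 muscle arrays and on 0 of 8 brain arrays, whereas the Tmem109 clone, drawn for comparison, was within 0.01 of it on 0 arrays.

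Of the genes that the study's text discusses for brain or heart, Ass1, Tnnc1 and Nup155 are described above with differences of 1.41, 1.11 and -0.93. Atxn10, of the ataxin family, had -0.24, -0.66, -0.73 and -0.80 in brain, against 0.35, -0.19, 0.25 and -0.27 in muscle on clone 19986, a difference of -0.65 ± 0.23 (SD, n = 4 mice). It was below 0 in all mice, although brain of mouse W lay above muscle of mouse Z. The difference of clone 19986 was -1.22 with the mutant in Cy5 alone and -0.07 in Cy3 alone. Clone 6945 of Atxn10, with values from 2 mice in both organs, gave 1.11. Xiap, an inhibitor of apoptosis, had -0.29, -0.54, -0.26 and -0.74 in brain, against 0.17, 0.19, -0.12 and 0.04 in muscle, a difference of -0.53 ± 0.29 (SD, n = 4 mice), without overlap. By dye, Xiap had -0.94 in Cy5 alone and -0.12 in Cy3 alone. Arpp19, a phosphatase inhibitor regulated by cAMP, had -0.45 ± 0.34 (SD, n = 4 mice) and was below 0 in all mice. The clones of Calm3 lay between -0.33 and -0.11, those of Ttr gave -0.24 and -0.83, those of Syt1 -0.17 and 0.06, and the clones of Mt3 and Ankrd1 -0.40 and -0.14, none of them below or above 0 in all 4 mice except Calm3 clone 15844. All had an adjusted p of at least 0.752 from limma.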

How the data were processed

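The deposited table holds log2 ratios of 20794 clones, 1 column per array, which the authors obtained by scanning with GenePix, normalization with MIDAS and analysis with SAM; the normalization method and the filters are not given in the sources used here. The values were already turned to the same direction on both dye orientations and were taken as deposited. Signals, background and levels were not used here, so the number of arrays and the spread between mice limit the precision. Arrays of a mouse and organ were averaged, and brain minus muscle within a mouse was compared with 0 by limma 3.58.1 (lmFit, eBayes, Benjamini-Hochberg, adjusted p under 0.10) in R 4.3.3, on clones with values on both arrays in at least 3 mice per organ. Heart arrays were left out. Since each pool is 1 control sample, the p-values rest on how far the mutant mice differ from each other, whatever the pool. SAM was coded in R with all 16 sign flips. The labels give the same 4 animals in both organs, which pairs the samples, although brain and muscle deviations of an animal correlated by only 0.004 to 0.06 across clones. Symbols came from the platform annotation, and all 12771 clones with a symbol matched GRCm38.p6. For lists, clones of a symbol were averaged, and lists are described by counts and medians. Members and lists were chosen with earlier results of these data known. Named are the 10 clones with a symbol and 4 differences with the lowest p in each direction, the other clones of their genes, up to 2 clones without a symbol per direction, Eya3, Nup155, haemoglobin, genes the study discusses, and in each list up to 2 genes at either end; other genes, such as the members of the profiles and those with the shared value, were chosen after their values were seen. Programs were tested on simulated data. Alternatives were centring and scaling, 1 dye orientation, values beyond 10 as missing, other requirements on missing values, no pairing, a random block, robust eBayes, other thresholds, averaged clones, SAM and leaving out a mouse. Leaving out the haemoglobin profile and setting shared values to missing were chosen after seeing the data. Plots used Python 3.11.15 and matplotlib 3.10.9.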

Additional observations from a re-analysis of the deposited data

Results flagged for a closer look

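In 96 sets of 4 mice (the brain, muscle and difference values of the lead clones and main lists), 6 held a mouse far from the other 3 by Dixon's criterion at its 95% limit, and chance gives about 1 in 20. The difference of Tcea3 clone 7776 was 0.82 in mouse X and between 1.48 and 1.53 in the others. Clone 9788 had 1.96 in muscle of mouse Z, where the other mice had -0.30 to -0.02. The ribosomal protein median in muscle was -0.18 in mouse Z and 0.07 to 0.08 in the others. The median difference of ribosomal proteins was -0.22 in mouse Y and -0.32 to -0.30 in the others. That of the respiratory chain and ATP synthase was -0.15 in mouse W and -0.32 to -0.31 in the others. That of synaptic vesicle and neuron markers was -0.30 in mouse X and -0.12 to -0.09 in the others.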

How the results depend on the processing

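The count of clones called by limma stayed at 0 under every alternative run, with a lowest adjusted p between 0.641 and 0.83, and without the replicate block (mouse pairing) it was 0 with 833 clones at an unadjusted p under 0.05. SAM called 1 clone. The pairing changed no call. With the mutant in Cy3 alone the list medians were -0.201 for ribosomal proteins and -0.22 for the respiratory chain. With the mutant in Cy5 alone they were -0.252 for fast fibres and 0.0762 for neuron markers, and in Cy3 0.204 and -0.413. Leaving out a mouse gave -0.304 to -0.265 for ribosomal proteins, -0.326 to -0.292 for the respiratory chain, -0.271 to -0.184 for the proteasome, -0.287 to -0.16 for neuron markers, 0.0213 to 0.374 for slow fibres and -0.0223 to 0.00225 for fast fibres. Slow fibres had 0.109 with values beyond 10 as missing, and fast fibres -0.107 with shared values as missing or each clone counted apart. Among 39 tested clones the difference changed sign on 1 dye orientation for Mad2l1 20344 (0.048 in Cy5), Ttr 51 (0.812 in Cy5), Ttr 2267 (0.038 in Cy5), Syt1 16814 (0.452 in Cy5), Syt1 17277 (-0.501 in Cy5), Mt3 17217 (0.087 in Cy5), Atxn10 6945 (-0.907 in Cy3) and Calm3 16324 (0.134 in Cy3). Leaving out a mouse changed its sign for Ttr 51 (range -0.659 to 0.042, without Z), Ankrd1 1707 (-0.276 to 0.077, without W), Calm3 16324 (-0.19 to 0.016, without X), Calm3 19960 (-0.272 to 0.011, without X), Syt1 16814 (-0.43 to 0.088, without X) and Syt1 17277 (-0.435 without Z and -0.356 without Y, to 0.978). The causes were not tested. The number of arrays, the missing values and the low correlation of dye-swapped arrays limit the precision.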

Other observations

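Among lists not described so far, glycolysis and glycogen genes had 16 of 21 below 0 (median -0.32) and myogenic and neuromuscular junction genes 8 of 12 (median -0.30). The glycolysis list had -0.01 in mouse W and -0.355 to -0.226 in the other mice. Of its 16 genes with 4 differences, 3 were below 0 in every mouse, where 14.1% of all genes were. In Cy5 alone 12 of 21 were below 0 (median -0.28), and in Cy3 alone 18 of 22 (median -0.33). The median of the myogenic list was 0.08 without mouse Y. Tubulins, actins and keratins had 21 of 35 below 0 (median -0.23), with 10 of 22 below 0 in all mice (14.1% of all genes) and -0.03 with the mutant in Cy5 alone. Their extremes were Krt16, a keratin with the haemoglobin profile, at -1.18 ± 0.79 and Krt8, a keratin of simple epithelia, at 0.91 ± 0.57 (SD, n = 4 mice each). Nucleoporins and nuclear transport factors had 12 of 30 below 0 and a median of 0.10, which was -0.13 with the mutant in Cy5 alone. Collagens and matrix genes had 21 of 44 below 0 (median 0.02), with 0.23 in Cy5 alone and -0.28 in Cy3 alone, and the values of Thbs2 (-2.12) and Lamc3 (2.66) rested on muscle values of 8.61 and -8.80 in mouse W.

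Genes next to Eya3 on chromosome 4 lay on both sides of 0. Stx12, a SNARE protein of endosomes, had -0.57 with 4 of 4 mice below 0, and Wasf2, an activator of actin branching, had 0.49 with 4 of 4 mice above 0, from clones 19258 (1.0) and 19623 (-0.03) that disagreed. Of all genes with 4 differences, 14.1% were below 0 in every mouse and 6.11% above. Both organs of a mouse carry the same DNA there, and an effect of that DNA on these ratios was not tested.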
